A study of Mus musculus with 2 samples.

Results

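The genes described here carry the signal of the cytokine receptor subunit gp130 to the transcription factor Stat3. They are 10 genes, Stat3, Osmr, Il6st, Il6ra, Lifr, Jak1, Jak2, Socs3, Il6 and Osm, taken by their symbols in the platform annotation with every probe set kept. A probe set is a group of short oligonucleotides on the array that together give 1 signal for a transcript. Of the 10 genes 9 had a probe set, 22 of the 22690 probe sets on the array, and Osm was not analysed here. The genes were chosen by symbol, with the transgenic and wild-type signals of these same arrays in view, so the differences in signal are given as a description.

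The transgenic array held total RNA of 10-day-old mice, labelled K14Ahr, that express a constitutively active aryl hydrocarbon receptor (AhR) in keratinocytes. The wild-type array held RNA of non-transgenic littermates of the same age. In both, the RNA came from whole back skin, so dermis, vessels, hair follicles and immune cells were included, although the labels place the transgene in keratinocytes. K14 is the usual short name of keratin 14, a keratin of basal keratinocytes. Each genotype had 1 array, and how many animals each array holds is not given in the labels. No value therefore has a replicate error, no difference was tested, and each comparison is of these 2 arrays. In whole skin, more cells of a type and more RNA per cell cannot be told apart.

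Cytokines of the interleukin-6 family, among them interleukin-6, oncostatin M and leukaemia inhibitory factor, all signal through gp130, the product of Il6st. They use gp130 together with a further subunit, such as the oncostatin M receptor (Osmr) or the leukaemia inhibitory factor receptor (Lifr). For interleukin-6 it is the binding subunit Il6ra. The receptor-bound kinases Jak1 and Jak2 then phosphorylate Stat3, which enters the nucleus and induces, among others, Socs3, the inhibitor that ends the signal. In epidermis Stat3 is known for its part in wound closure and in psoriasis-like thickening.

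Promoter windows of the members were searched for the palindromic STAT recognition motif TTCNNNGAA and for the AhR core motif GCGTG, on both strands. The windows were RefSeq windows of the mouse assembly GRCm38.p6, with 250 bases before and 50 bases from a transcript start on. Windows existed for 9 members. The STAT motif was in 1 of the 9 members, Socs3, and in 9.55% of the 27025 genes with a window. The AhR core was in 6 of the 9 members and in 35.2% of those genes, which makes it a common string. Printed here, 5′ to 3′ on the gene's strand and up to the transcript start, are the Socs3 window with the STAT match, the Lifr window with an AhR core match, and the Jak2 window with the most AhR core matches among the members. Capitals mark the matches. They lie at chr11:117969367-117969616 on the minus strand, chr15:7129322-7129571 on the plus strand and chr19:29251553-29251802 on the plus strand.
Socs3: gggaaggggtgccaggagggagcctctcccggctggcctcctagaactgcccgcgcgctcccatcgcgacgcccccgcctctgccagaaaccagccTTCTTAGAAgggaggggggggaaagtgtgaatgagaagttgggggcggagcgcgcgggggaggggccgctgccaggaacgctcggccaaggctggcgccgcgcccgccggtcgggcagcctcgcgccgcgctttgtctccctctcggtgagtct
Lifr: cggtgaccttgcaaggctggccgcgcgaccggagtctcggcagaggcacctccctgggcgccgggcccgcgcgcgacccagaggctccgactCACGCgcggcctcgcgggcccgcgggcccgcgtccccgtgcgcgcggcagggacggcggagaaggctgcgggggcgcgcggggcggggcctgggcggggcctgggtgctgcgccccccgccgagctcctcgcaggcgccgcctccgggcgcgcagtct
Jak2: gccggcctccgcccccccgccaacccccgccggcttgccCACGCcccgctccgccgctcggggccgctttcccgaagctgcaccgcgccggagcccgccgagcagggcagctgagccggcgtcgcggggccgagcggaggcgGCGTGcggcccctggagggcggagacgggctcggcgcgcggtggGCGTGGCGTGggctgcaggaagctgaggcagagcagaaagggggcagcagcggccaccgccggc
The STAT match of Socs3 begins 154 bases before the start, and the AhR core of Lifr 158 bases before it. Jak2 has 4 AhR core matches, of which the nearest begins 59 bases before the start. The other AhR core matches were in Jak1, 71 bases before the start, and past the start in Stat3, Il6ra and Osmr (14, 15 and 35 bases). Il6st and Il6 had no match of either motif. The matches are letters in a window and were not tested as binding sites.

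Signals of the receptors, the kinase Jak1, Stat3 and Socs3 were higher on the transgenic array, while Jak2 and the brighter probe set of Il6ra read within 1.5-fold of wild type and Il6 was too dim to compare. Before any filter, 19 of the 22 member probe sets (86.4%) had a higher signal on the transgenic array, against 45.5% of all 22626 non-control probe sets. Signals under 34.7, the 40th percentile of all signals, were raised to that floor. A gene counted as measured when its brightest probe set exceeded this floor on 1 array or both, and a fold with 1 array at the floor is a lower bound. By this rule 8 members were measured, and 4 of them (Stat3, Osmr, Lifr and Socs3) were at least 2-fold higher, where 2.27% of the 8894 measured genes of the series were. At 1.5-fold there were 6, with Il6st and Jak1 added, where 6.8% of all measured genes were. None of the 8 was at least 2-fold lower, where 1.09% of the measured genes were. The log2 ratio, always transgenic over wild type, had a median of 1.04 in these 8 genes and of -0.05 in all measured genes. These counts follow from how the genes were picked and carry no weight as evidence.

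**Figure D1:**
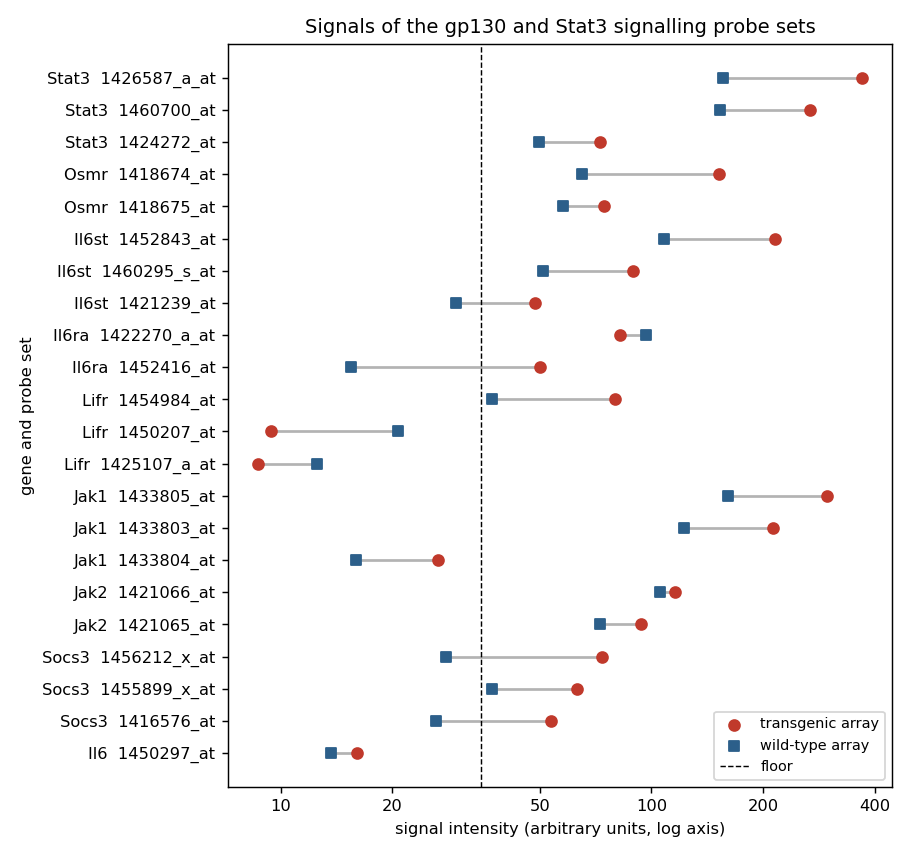
Signal intensity (arbitrary units, log axis) of each of the 22 member probe sets on the transgenic array (red circles) and the wild-type array (blue squares), with the floor of 34.7 as a dashed line. The transgenic signal lies to the right in 19 probe sets, and both dimmer Lifr probe sets and 1 of Il6ra run the other way.

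Among the receptors, Osmr, the subunit that joins gp130 to receive oncostatin M, was read by 2 probe sets. Probe set 1418674_at read 152.6 on the transgenic array against 64.8 on the wild-type array, 2.35-fold higher. Probe set 1418675_at read 74.6 against 57.9, 1.29-fold higher. Both lay above the floor on both arrays and ran the same way, but their log2 ratios of 1.24 and 0.37 were 0.87 apart. Averaged over both, Osmr had a log2 ratio of 0.80, under the 2-fold limit.

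Il6st, which encodes the shared subunit gp130, had 3 probe sets, each higher on the transgenic array. The brightest, 1452843_at, read 216.2 on the transgenic array against 108.4 on the wild-type array, 1.99-fold higher and just short of the limit. Probe set 1460295_s_at read 89.5 against 51.0, 1.75-fold higher. On the dimmest, 1421239_at, the transgenic signal was 48.6 and the wild-type signal of 29.8 lay under the floor, which gives at least 1.40-fold. The log2 ratio of the brightest passed 1 when ratios were centred on their median (1.04), under quantile normalization (1.02) and under lowess centring (1.06), so the side of the limit on which Il6st falls depends on the scaling.

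Lifr, the partner of gp130 for leukaemia inhibitory factor, was measured by 1 of 3 probe sets. Probe set 1454984_at read 79.7 on the transgenic array against 37.1 on the wild-type array, 2.15-fold higher, with the wild-type signal close to the floor. The other Lifr probe sets were under the floor on both arrays and ran the other way, with 9.4 against 20.7 for 1450207_at and 8.7 against 12.5 for 1425107_a_at. The call for Lifr thus rests on 1 probe set, and it was lost with a floor at the 60th percentile (log2 ratio 0.17) and with a pseudocount of 16 (0.85). In the gene order of GRCm38.p6, Osmr and Lifr lie side by side on chromosome 15, with 0 protein-coding genes between them. Rictor, a subunit of the growth-regulating kinase complex mTORC2 and the neighbour on the other side of Osmr, read 28.4 against 41.8, a log2 ratio of at most -0.27.

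The probe sets of Il6ra, the subunit that binds interleukin-6 itself, ran in opposite directions. The brighter, 1422270_a_at, read 82.4 on the transgenic array against 96.8 on the wild-type array, a log2 ratio of -0.23. The dimmer, 1452416_at, read 50.2 against 15.5, at least 1.45-fold higher. Il6ra therefore had no single direction on these arrays. Without probe sets whose name carries a letter suffix its log2 ratio was at least 0.53.

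Of the kinases, Jak1 was higher on the transgenic array and Jak2 was close to equal. Jak1 is the main kinase of gp130 receptors. Its probe set 1433805_at read 297.5 on the transgenic array against 161.0 on the wild-type array, 1.85-fold higher, and 1433803_at read 213.2 against 122.6, 1.74-fold higher. Their log2 ratios were 0.09 apart, the closest pair among the members. The remaining Jak1 probe set, 1433804_at, was under the floor on both arrays (26.6 against 16). Jak2, which also serves the receptors of growth hormone and erythropoietin, read 115.6 against 105.4 by 1421066_at (1.10-fold) and 93.5 against 72.8 by 1421065_at (1.28-fold).

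Stat3 had a higher signal on the transgenic array by all 3 of its probe sets, by amounts that differed. Probe set 1426587_a_at read 370.6 on the transgenic array against 155.9 on the wild-type array, 2.38-fold higher. Probe set 1460700_at read 267.3 against 153.2, 1.74-fold higher, and 1424272_at read 72.6 against 49.8, 1.46-fold higher. All 6 signals lay above the floor. The suffix a marks a probe set that reads several transcript variants of a gene. Which part of the Stat3 transcript each reads is not known here.

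The 3 log2 ratios of Stat3 (1.25, 0.80 and 0.54) spanned 0.71. Across the 532 genes of the series with 3 probe sets that exceeded the floor on both arrays, the median span was 0.36 and the 95th percentile was 0.92, and 86.8% had a smaller span than Stat3. The direction was therefore shared by its probe sets, while the size was not settled. A fold past 2 came from 1 probe set only. The mean of the log2 ratios was 0.87, and the brightest probe set without a suffix gave 0.80, both under the limit.

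**Figure D2:**
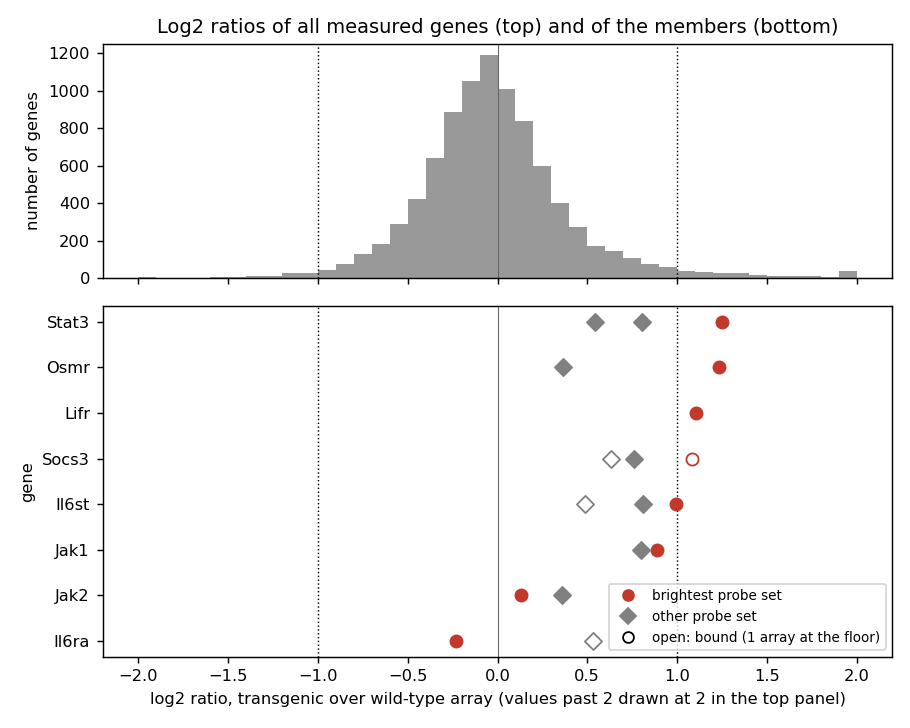
Top, number of genes by log2 ratio (transgenic over wild type) for all 8894 measured genes; bottom, the log2 ratio of each measured member probe set, with the brightest of a gene as a red circle, others as grey diamonds, bounds open, and dotted lines at a 2-fold difference. The brightest probe sets of Stat3, Osmr, Lifr and Socs3 lie past the right dotted line, and within Stat3, Osmr and Il6ra the probe sets are spread by 0.71 to 0.87.

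Stat3 lies next to its relatives Stat5a and Stat5b on chromosome 11, factors that serve prolactin and growth hormone signals. Stat5b read 68.5 on the transgenic array against 48.7 on the wild-type array, a log2 ratio of 0.49, and Stat5a 46.0 against 5.4, a log2 ratio of at least 0.41. On the other side, Cavin1, a coat protein of caveolae, read 229.8 against 116.5, a log2 ratio of 0.98. None of these 3 neighbours reached 2-fold by this rule.

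Socs3, the feedback inhibitor of gp130 and a direct target of Stat3, was dim, and all 3 of its probe sets were higher on the transgenic array. Probe set 1456212_x_at read 73.5 on the transgenic array against 27.9 on the wild-type array, at least 2.12-fold higher. Probe set 1455899_x_at read 62.9 against 37.2, 1.69-fold higher, and 1416576_at read 53.7 against 26.2, at least 1.55-fold higher. The suffix x marks probes that may bind other transcripts as well. The unmarked 1416576_at ran the same way, but its bound lay under 2-fold (log2 ratio at least 0.63). With a floor at the 60th percentile, 70.7, the call for Socs3 was lost (at least 0.06), as it was with the mean over its probe sets (0.82).

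Of the ligands, Il6 was under the floor on both arrays, with 16.1 on the transgenic array against 13.7 on the wild-type array by its 1 probe set, 1450297_at. No fold is given for it. The other ligands of the family were mostly dim as well. Lif, the gene of leukaemia inhibitory factor, read 17.8 against 19.2, Il11 5.1 against 18.7, and Ebi3, a subunit of interleukin-27, 21.6 against 9.3, all under the floor. Ctf1, the gene of cardiotrophin-1, read 105.5 against 100.4 (log2 ratio 0.07), and Clcf1, a ligand of the ciliary neurotrophic factor receptor, 133.6 against 187.9 (-0.49). Of the 9 other ligands listed, only Ctf1 and Clcf1 were measured, and Cntf, Ctf2, Il27 and Il31 had no probe set of their own. Neither measured ligand was 2-fold higher, where 2.27% of all measured genes were. With 2 measured, the ligands as a set cannot be compared with the receptors.

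None of the other receptors, kinases and Stat factors measured passed 2-fold with the floor used here. Over all measured genes 2.27% were higher and 1.09% lower by as much, so none among so few genes is near those shares. Of the 5 other receptor genes listed, only Cntfr, the receptor subunit for ciliary neurotrophic factor, was measured, at 103.3 on the transgenic array against 108.7 on the wild-type array (log2 ratio -0.07). Il31ra, which pairs with Osmr to receive interleukin-31, was under the floor at 18.9 against 15.7. The 6 measured kinases and Stat factors had a median log2 ratio of 0.02. With a floor at the 20th percentile or a pseudocount of 16 there was 1 past 2-fold, Stat5a, whose wild-type signal is under the floor. Stat5b (0.49) and Stat5a (at least 0.41) were the highest, 2 of the 6. The lowest were the kinase Tyk2 (-0.06) and Stat6, the factor of interleukin-4 signals (-0.12 by the brighter and 0.21 by the other probe set).

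Among 14 measured negative regulators of Jak-Stat signalling 1 was higher by 2-fold or more and none lower by as much, against 2.27% and 1.09% of all measured genes, and the median log2 ratio was 0.18. The gene past the limit was Ptprc, which encodes the phosphatase CD45 of all leukocytes, at 117.4 on the transgenic array against 39.6 on the wild-type array (2.96-fold). Its wild-type signal was close to the floor, and the call was lost with a floor at the 60th percentile and, as its 1 probe set carries a suffix, without suffixed probe sets. Next came Socs5, a relative of Socs3, at 306.8 against 182.4 (1.68-fold). Its 2 probe sets gave log2 ratios of 0.75 and 0.66. Socs1, which restrains interferon signals, read 39.5 against 47.2 (-0.26). Pias3, named as a protein inhibitor of activated Stat3, read 65.1 against 83.9 (-0.37) by its brighter probe set, but the other gave 0.54. Of the Socs family, Socs3 passed 2-fold, but only by its brightest probe set. Its other probe sets, at 1.69-fold and at least 1.55-fold, were close to Socs5. Socs4 (0.41), Socs6 (0.36) and Socs7 (0.16) were also higher and under 2-fold.

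Of 13 measured adaptors and cofactors none passed 2-fold, where 2.27% of all measured genes were higher and 1.09% lower by as much. Their median log2 ratio was -0.04, close to that of all measured genes. The highest were Shc1, an adaptor that links receptors to Ras (0.41), and the small GTPase gene Rac1 (0.25). Among those above the floor on both arrays the lowest were Erbin, which encodes a scaffold protein of cell junctions (-0.53), and Stam, an adaptor of endosomal sorting (-0.40). Sos1, an exchange factor of Ras, read 23.6 on the transgenic array against 41.4 on the wild-type array, a log2 ratio of at most -0.25, so it has no rank beside them. Ptpn11, the phosphatase Shp2 that docks on gp130, read 395.7 on the transgenic array against 370.5 on the wild-type array (0.09).

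Known targets of Stat3 were higher in part. Of 32 measured targets 8 were higher by 2-fold or more and 1 was lower by as much, where 2.27% and 1.09% of all measured genes were. The list was chosen with earlier results of these data known, so its counts are a description and carry no weight as evidence. The median log2 ratio was 0.38, against -0.05 for all measured genes. Serpina3n, a serine protease inhibitor of the acute phase, read 317.2 on the transgenic array against 55.3 on the wild-type array (5.74-fold). Timp1, an inhibitor of metalloproteases that oncostatin M is known to induce, read 179.2 against 40.9 (4.38-fold). Hp, the gene of haptoglobin, read 925.1 against 236.1 (3.92-fold), and Lcn2, an iron-sequestering defence protein, 106.7 against 7.6 (at least 3.07-fold).

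The remaining targets past 2-fold were smaller. Cebpd, a transcription factor of the acute phase, was 3.01-fold higher by its brighter probe set (212.8 on the transgenic array against 70.7 on the wild-type array), with a log2 ratio of 0.83 by the other. Lrg1, a secreted glycoprotein of inflammation, was 2.15-fold higher, the immediate early gene Fos 2.09-fold and Saa3, a serum amyloid A gene, 2.06-fold. The count of 8 was 6 with a floor at the 60th percentile and without suffixed probe sets, where Lcn2 and Saa3 were lost, and 6 with a pseudocount of 16, where Fos and Saa3 were. The lowest were Hif1a, the oxygen-sensing factor, at 188.4 against 408.1 (2.17-fold lower, log2 ratio -1.12), and the kinase gene Pim1 (-0.43). One of the other measured probe sets of Hif1a gave -0.09, so its probe sets differed in size too, and the call was lost when they were averaged.

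Keratinocyte genes known, from cultured human keratinocytes, to respond to oncostatin M held stress keratins and alarm proteins with large differences. Of 16 measured genes 7 were higher by 2-fold or more and none was lower by as much, against the same 2.27% and 1.09% of all measured genes. The median log2 ratio was 0.88. This list too was chosen with earlier results of these data known, so its counts are a description only. With a floor at the 20th percentile 11 of 18 measured genes were higher by 2-fold or more, with Defb4, Cxcl1, Cxcl5 and Ccl2 added. The shares of all measured genes given above belong to the 40th percentile floor and not to that one. With a pseudocount of 16 the count was 9 of 16, where 213 of all 8894 measured genes were. Without suffixed probe sets the count was 6 of 12, with S100a8 lost, where 160 of all 7145 were. At a 3-fold limit the count was 5 of 16, where 61 of all 8894 were. The alarm keratins Krt6b, Krt16 and Krt6a were 35.1-fold, 7.79-fold and 2.48-fold higher, and the calprotectin subunits S100a9 and S100a8 11.9-fold and 2.24-fold. The wild-type signals of Krt6b (41.3) and S100a9 (40.4) lay close to the floor. The probe sets of Krt6a had log2 ratios from 1.31 to 2.19. The list also holds keratins and envelope proteins of differentiating cells, which oncostatin M is known to lower in culture. All 4 of these were higher on the transgenic array, Krt1 6.12-fold, Flg (filaggrin) 4.32-fold, Lor (loricrin) at a log2 ratio of 0.88 and Krt10 at 0.75. Il20, a cytokine gene, was the 1 measured gene of the list below 0 (-0.12). Cxcl5, a chemokine gene, read 35.5 on the transgenic array against 1.6 on the wild-type array, so its log2 ratio of at least 0.03 is a bound set by the floor and gives it no rank. Members of the list thus included genes that oncostatin M raises and genes that it lowers in culture, both higher here.

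**Figure D3:**
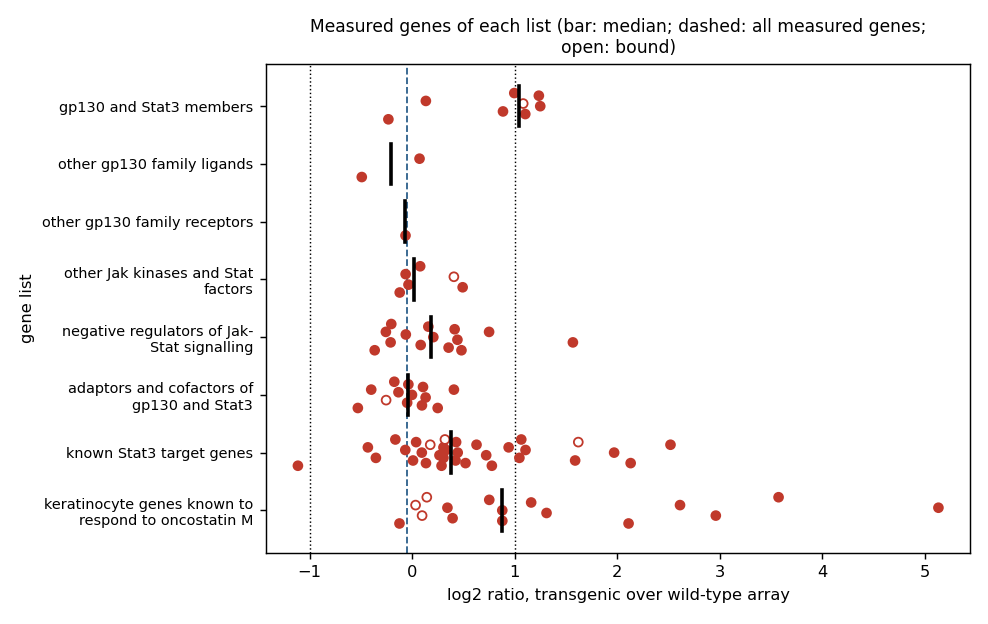
Log2 ratio (transgenic over wild type) of each measured gene (points, bounds open) in the gp130 and Stat3 members and 7 related lists, with each list's median as a black bar, the median of all measured genes (-0.05) dashed and a 2-fold difference dotted. No other kinase, Stat factor or adaptor lies past 2-fold, with values from -0.53 for Erbin to 0.49 for Stat5b. At least 2-fold higher are 8 Stat3 targets and 7 oncostatin M-responsive genes, and 1 target is lower by as much. Of all measured genes 2.27% are higher and 1.09% lower by as much.

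Markers of other cell types also differed between the arrays, in both directions. Of all measured genes 43.6% were higher on the transgenic array by any amount. Of the 7 basal keratinocyte markers, all measured, 5 were higher on the transgenic array and 2 lower. Krt14 read 3328.1 on the transgenic array against 1987.4 on the wild-type array, while Krt15 read 316.7 against 851.0 (2.69-fold lower) and Trp63 had a log2 ratio of -0.29. The summed signal, 7761.7 against 5767.3, comes mostly from Krt14 and Krt5. Of 6 measured suprabasal markers 4 were higher, with Ivl (42.9 against 121.3, 2.83-fold lower) and Dsc1 (-0.19) lower, and their sum of 11894.4 against 4595.4 comes mostly from Calm4, Krt10, Krt1 and Lor. The labelled tissue thus had defining keratinocyte markers on both arrays.

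Macrophage markers, 9 of 10 listed with a probe set and all 9 measured, summed to 2173.6 on the transgenic array against 739.5 on the wild-type array. Of them 7 were at least 2-fold higher, where 2.27% of all measured genes were. Among the 7, the ratio of Cd163 is a bound, and the probe sets of Csf1r had log2 ratios from 0.45 to 1.06. Langerhans and dendritic cell markers summed to 2483.5 against 1171.9, mostly from H2-Aa, Epcam and Cd74, with Cd207 and Flt3 under the floor on both arrays. Mast cell markers summed to 939.2 against 573.1, with Fcer1a under the floor on both arrays. Of 6 measured mast cell markers 4 were higher, with Kit (log2 ratio -0.46) and Ms4a2 (-0.15) lower. Of 6 granulocyte markers with a probe set, Cxcr2 and Elane were under the floor and the sum was 1086.7 against 551.1, most of it from S100a8. Of 7 T cell markers with a probe set, 6 were under the floor on both arrays, all 3 CD3 chains, Cd4 and Cd8a among them.

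Fibroblasts and endothelial cells carry Osmr and gp130 as well. Of 7 fibroblast markers 5 were higher on the transgenic array, with a median log2 ratio of 0.40. Pdgfra read 166.5 on the transgenic array against 63.3 on the wild-type array by its brighter probe set (2.63-fold higher). Its other probe set had a log2 ratio of 0.18, so the size for Pdgfra was not settled. Their sum, 9538.2 against 9885.7, is set by the collagens, of which Col1a1 had a log2 ratio of -0.54. Of 6 measured endothelial markers 3 were higher, near the share of 43.6% of all measured genes. Their median was 0.14 and their sum 430.0 against 383.3.

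Markers of other skin structures had lower sums on the transgenic array. Melanocyte markers summed to 1366.4 on the transgenic array against 2650.3 on the wild-type array, with a median log2 ratio of -0.95. Of 6 measured 3 were at least 2-fold lower, where 1.09% of all measured genes were. Skeletal muscle markers summed to 3557.8 against 4134.2 (median -0.73) and adipocyte markers to 2136.3 against 2472.5 (median -0.17, 2 measured). The muscle sum comes mostly from Acta1 (2384.5 against 2266), the 1 of 6 measured muscle markers that was higher. Hair follicle markers summed to 11506.6 against 12531.2 (median -0.30), mostly from Krt71, Krt25 and Krt27. These had log2 ratios of 0.08, -0.14 and -0.09. Krt84, at 2.85-fold lower, was the 1 of 7 hair follicle markers past 2-fold. What part any of these cell types had in the signals of Osmr, Il6st, Lifr, Stat3 and Socs3 was not tested.

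**Figure D4:**
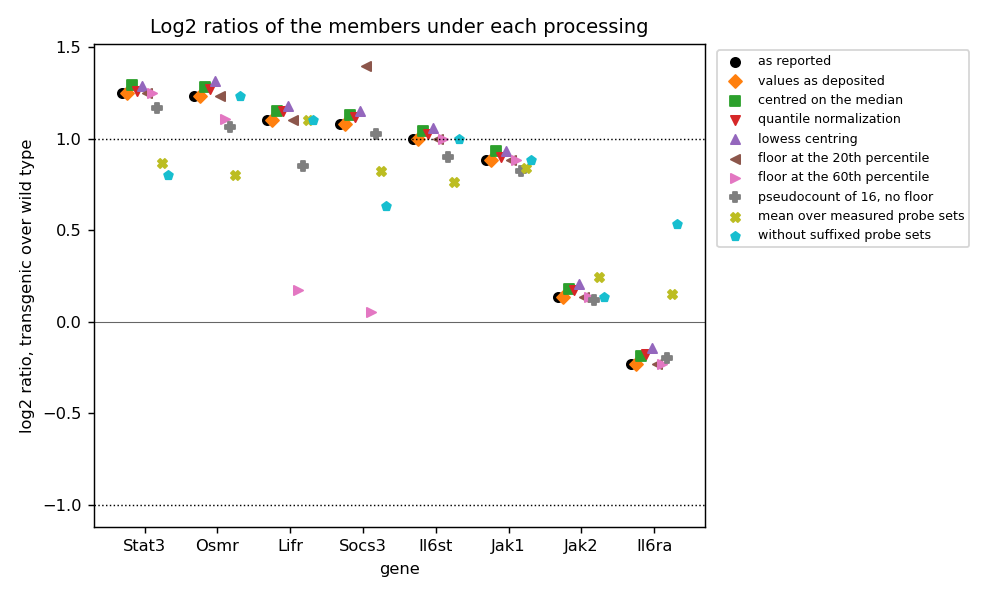
Log2 ratio (transgenic over wild type) of the 8 measured members as reported (black) and under 9 other ways of processing (coloured symbols), with a 2-fold difference dotted. Jak1 stays between 0.82 and 0.93 and Jak2 between 0.12 and 0.25, whereas Lifr and Socs3 drop to 0.17 and 0.06 with the highest floor and Stat3 to 0.80 without suffixed probe sets.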

How the data were processed

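Biotin-labelled total RNA of back skin was hybridised to 1-colour oligonucleotide arrays, 1 per genotype, per the labels. Per probe set, the deposited table holds 1 signal intensity on a linear scale, never below 0. Their trimmed mean, without the highest and lowest 2%, was 100.03 on both arrays, so they had been scaled before deposit. The sources used here do not name the software. Groups came from the source names in the labels.

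Of 22690 probe sets 64 were controls. The platform annotation (2016) gave 1 gene to 20380 of the others, several to 691 and none to 1555. Only those with 1 gene were named, 12393 genes in all, with symbols updated through a RefSeq gene table of GRCm38.p6. Signals were scaled to equal trimmed means, raised to a floor at their 40th percentile (34.7) and put on the log2 scale with Python 3.11.15, numpy 2.4.6 and scipy 1.17.1. Above the floor lay 59.7% of probe sets on the transgenic and 60.2% on the wild-type array. The probe set of highest summed signal stood for its gene. The call was a 2-fold difference, with no test since each group has 1 array, which limits the precision. Log2 ratios of 2 probe sets of a gene had a within-gene SD of 0.26 over 1764 genes.

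The members, the gene lists and the settings were chosen with earlier results of these data known. Named were all member probe sets and, in each other list, the genes past 2-fold and the 2 highest and 2 lowest; others, such as genes under the floor, Ptpn11, Socs1 and promoter or chromosome neighbours, were named for their role. The calculation was tested on simulated arrays. Protein sequences were not used here. The AhR core motif was added to the planned STAT motif after the data were seen.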

Additional observations from a re-analysis of the deposited data

How the results depend on the processing

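No paired analysis was possible because each genotype has 1 array. Neither could an array be left out. Against the 4 members at least 2-fold higher as reported, 2 were so under a 60th percentile floor (Stat3 and Osmr), 1 with the mean over a gene's measured probe sets (Lifr), 2 without suffixed probe sets (Osmr and Lifr) and 0 at a 3-fold limit, while 6 were at 1.5-fold. With 16 added to each signal and no floor it was 3, without Lifr, and with the 3 centring or quantile settings 5, with Il6st. Over all measured genes, 202 of 8894 were at least 2-fold higher as reported and 123 of 6352 under the 60th percentile floor. With the mean they were 187 of 8899 and without suffixed probe sets 160 of 7145. At 3-fold they were 61 of 8894 and at 1.5-fold 605. With 16 added they were 213 of 8894, centred on the median 229, under lowess centring 234 and under quantile normalization 219 of 8891. No member gene was called lower under any of the 11 alternatives. The members' median log2 ratio was 0.53 under that floor, against 1.04 as reported. The span of the Stat3 log2 ratios was 1.21 with that floor and 0.26 over the 2 probe sets without a suffix, against 0.71. Of the other pathway genes, 16 of 84 measured were at least 2-fold higher and 10 at 3-fold, where 202 and 61 of all 8894 measured genes were. Lower were 1 as reported, 2 under a 20th percentile floor and 0 with probe sets averaged, without suffixed probe sets or at 3-fold. Over all measured genes 97 of 8894 were lower as reported and 257 of 10893 under the 20th percentile floor. Fewer probe sets or a higher floor change which values are bounds; the cause of the other shifts was not tested. Signals near the floor, as for Socs3, Lifr and the dimmer Il6ra probe set, give bounds or ratios that move with it.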
